A study of Mus musculus with 12 samples.

Results

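The colony-stimulating factor receptors are encoded in the mouse by 6 genes, chosen here by symbol: Csf3r, Csf1r, Csf2ra, Csf2rb, Csf2rb2 and Il3ra. They are 6 of the 23479 genes in the deposited expression table, and all 6 were among the 11122 genes with a mean of at least 10 normalized counts that were tested. The libraries came from the spleens of C57BL/6 mice carrying tumours of the melanoma line B16, and 2 kinds of myeloid-derived suppressor cell (MDSC) had been sorted by flow cytometry, the monocytic kind (M-MDSC) and the polymorphonuclear kind (PMN-MDSC). The groups marked LD came from mice given cyclophosphamide, an alkylating drug, together with fludarabine, a purine analogue, after their tumours had established, and the groups marked Ctrl from tumour-bearing mice that received neither drug. Spleens were taken 7 days after treatment, so all 4 groups, M-MDSC LD, M-MDSC Ctrl, PMN-MDSC LD and PMN-MDSC Ctrl, share the B16 tumour, and each was represented by 3 libraries. The labels give a sorting purity but not the surface markers of the gates, nor whether each library came from 1 mouse or from a pool, so the p-values below measure the spread between these libraries, which may be in part technical.

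Colony-stimulating factors are secreted proteins that direct the growth, survival and maturation of myeloid cells. G-CSF binds a homodimer of the Csf3r product, the main receptor of granulocyte production, and M-CSF (the Csf1 product) and IL-34 bind the receptor tyrosine kinase Csf1r, on which monocytes and macrophages depend. GM-CSF and IL-3 each bind a ligand-specific alpha chain, encoded by Csf2ra and Il3ra, which signals through a beta chain encoded by Csf2rb. Mice carry an additional beta chain gene, Csf2rb2, whose product pairs with the IL-3 alpha chain. Csf3r and the beta chains have no kinase domain and signal through Jak2 and the STAT factors bound to them, whereas Csf1r phosphorylates its own tail. Tumours that release G-CSF, GM-CSF or M-CSF are known to expand MDSCs in the spleen.

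The 6 genes lie on 5 chromosomes (mm10, GENCODE M21). Csf3r spans chr4:126024550-126044440 on the plus strand, Csf2ra chr19:61223957-61228429 on the minus strand and Il3ra chr14:14346275-14356011 on the plus strand. Csf2rb (chr15:78325752-78353847, plus strand) and Csf2rb2 (chr15:78282507-78305721, minus strand) are neighbours that point away from each other. Their coding sequences, of 2688 and 2634 bases, were identical at 2504 of the 2626 bases that align, or 95.4%. Of the 50-base windows of the longest coding transcript of Csf2rb, untranslated parts included, 18.4% occurred exactly in that of Csf2rb2, and of the 100-base windows 6.96% did. How reads that match both genes were counted is not given in the sources used here, so the split of counts between this pair is uncertain. The longest stretch that is identical in both genes within 1 exon, 242 bases in exon 15 of Csf2rb (chr15:78348577-78348818, plus strand) and exon 14 of Csf2rb2 (chr15:78284630-78284871, minus strand), shows where a short read cannot be assigned:
Csf2rb and Csf2rb2, identical: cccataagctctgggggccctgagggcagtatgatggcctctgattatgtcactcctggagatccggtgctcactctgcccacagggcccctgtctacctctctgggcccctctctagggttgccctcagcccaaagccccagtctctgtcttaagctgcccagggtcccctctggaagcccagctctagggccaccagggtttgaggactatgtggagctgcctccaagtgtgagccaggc
The 60-base stretch with the most differences lies in exon 5 of Csf2rb (chr15:78338893-78338952, plus strand) and exon 4 of Csf2rb2 (chr15:78294379-78294438, minus strand), and its 13 differing bases, in capitals, show what separates the genes. Sequences are given 5′ to 3′ on the coding strand.
Csf2rb: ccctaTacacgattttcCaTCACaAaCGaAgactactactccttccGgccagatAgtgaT
Csf2rb2: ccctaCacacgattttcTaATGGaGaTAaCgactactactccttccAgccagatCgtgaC

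Csf3r and Il3ra, the receptor genes that fell and rose most in PMN-MDSC LD, were picked to show the letters around their start sites. RefSeq windows of 250 bases before to 50 bases after the annotated start (GRCm38.p6) were held for 4 of the 6 genes, Csf3r, Il3ra, Csf2rb2 and Csf2ra. The Csf3r window (chr4:126024409-126024708, plus strand) is shown with its single copy of GAGGAA, the purine-rich core bound by PU.1 and other ETS factors, in capitals, and the Il3ra window (chr14:14346245-14346544, plus strand) with its 7 copies of the GC box GGGCGG, on either strand, in capitals:
Csf3r: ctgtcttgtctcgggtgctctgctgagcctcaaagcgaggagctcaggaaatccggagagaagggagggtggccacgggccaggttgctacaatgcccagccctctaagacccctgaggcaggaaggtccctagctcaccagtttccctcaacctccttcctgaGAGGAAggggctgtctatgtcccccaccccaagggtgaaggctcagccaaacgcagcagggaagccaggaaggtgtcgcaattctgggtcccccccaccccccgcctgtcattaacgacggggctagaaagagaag
Il3ra: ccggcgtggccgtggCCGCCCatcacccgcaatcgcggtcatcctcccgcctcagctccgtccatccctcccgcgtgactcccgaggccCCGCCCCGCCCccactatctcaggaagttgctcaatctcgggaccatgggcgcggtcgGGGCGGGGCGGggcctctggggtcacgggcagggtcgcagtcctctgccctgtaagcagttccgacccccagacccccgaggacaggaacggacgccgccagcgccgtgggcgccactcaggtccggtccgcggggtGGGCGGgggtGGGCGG
The GAGGAA of Csf3r began at position -86 relative to the RefSeq start. The GENCODE gene starts given above lie inside both windows, before the RefSeq starts. By GENCODE the GAGGAA of Csf3r and most GC boxes of Il3ra thus lie within the genes. Positions here are counted from the RefSeq starts. The GC boxes of Il3ra began at -235, -161, -156, -103, -98, 34 and 44, and those at -161 and -156, as those at -103 and -98, share their last and first base. Of 32544 such windows, 28.1% held GAGGAA on either strand and 35.9% held GGGCGG. The Csf2ra window held both, GAGGAA at -14 and -8 and GGGCGG at -102. The Csf2rb2 window held GAGGAA at -167 and 29. Neither of these genes was called for treatment. The STAT motif TTCNNNGAA, present in 8.33% of all windows, occurred once in the Csf2rb2 window and in none of the other 3, and the C/EBP motif TTNNGNAA, present in 40.7% of all windows, occurred in those of Il3ra, Csf2rb2 and Csf2ra. In the Csf2rb2 window a GAGGAA and a TTNNGNAA overlapped, both beginning at 29. The RUNX motif TGTGGT, present in 16.7% of all windows, was in none of the 4. These matches are a description of letters, not of binding, and any link to the levels was not tested.

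Library totals, recovered from the table as whole reads, ranged from 8906045 to 16242926. The sorted kinds matched their labels in most markers. Of 12 monocyte markers, Csf1r included, 11 were higher in M-MDSC than in PMN-MDSC among Ctrl libraries and 10 among LD libraries. Over all genes tested 38.8% were higher in each treatment. Cd14, a lipopolysaccharide co-receptor, was lower in M-MDSC in both. Ly6c2 did not pass in LD, where it averaged 2195.9 normalized counts in M-MDSC against 1974.7 in PMN-MDSC. In Ctrl it averaged 1559.4 in M-MDSC against 523.0 in PMN-MDSC. All 12 neutrophil markers, Csf3r included, were lower in M-MDSC than in PMN-MDSC in both treatments. Over all genes tested 36.8% were lower in Ctrl and 36.1% in LD. Some of these lists differed between the treatments. Without the receptors themselves, 11 neutrophil marker genes summed to 17713 to 86747 normalized counts in M-MDSC LD against 4625 to 6699 in M-MDSC Ctrl, and to 734331 to 855318 in PMN-MDSC LD against 332082 to 352046 in PMN-MDSC Ctrl. The 11 monocyte markers summed to 61778 to 79143 in M-MDSC LD against 95073 to 113954 in M-MDSC Ctrl, and to 4685 to 6045 in PMN-MDSC LD against 3188 to 4869 in PMN-MDSC Ctrl. The 10 progenitor markers summed to 2030 to 7845 in M-MDSC LD against 519 to 621 in M-MDSC Ctrl, and the 14 cell division genes to 4462 to 15037 in M-MDSC LD against 1388 to 1687 in M-MDSC Ctrl. In PMN-MDSC the cell division genes summed to 2393 to 12104 in LD (median 3740) against 3185 to 4192 in Ctrl, so the LD libraries differed widely among themselves. These are bulk samples, in which fewer cells of a type and less RNA per cell cannot be told apart.

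Receptor levels differed with treatment in PMN-MDSC. Csf3r, Csf1r and the beta chain Csf2rb were lower in PMN-MDSC LD than in PMN-MDSC Ctrl, by 1.62-fold, 1.41-fold and 1.27-fold, and the IL-3 alpha chain Il3ra was 2.27-fold higher. Thus 3 of the 6 genes fell and 1 rose in limma's moderated test at an adjusted p of 0.05, whereas 8.51% of all genes tested fell and 7.17% rose (15.7% in either direction). The GM-CSF alpha chain Csf2ra and the beta chain Csf2rb2 did not pass. Of the calls over all genes, 45.7% were higher in LD, or 35.5% when libraries were scaled to their totals, a setting under which the 4 receptors stayed past the threshold.

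The G-CSF receptor Csf3r was among the most abundant transcripts of PMN-MDSC. It had 98419.9, 101934 and 95898.8 normalized counts in the PMN-MDSC LD libraries against 157386, 153565 and 169452 in the PMN-MDSC Ctrl libraries. Every LD library lay below every Ctrl library, as for 17.8% of all genes tested, and the spread within each group was small beside the gap. The log2 difference was -0.70 ± 0.10 (SE; 95% interval -0.92 to -0.47; limma adjusted p = 9.47e-04). Csf3r held 0.668 ± 0.0565% of all normalized counts in PMN-MDSC LD and 1.13 ± 0.0562% in PMN-MDSC Ctrl (SD, n = 3 each), and its group mean ranked 8 of 23479 genes in PMN-MDSC LD and 4 in PMN-MDSC Ctrl. Other neutrophil markers did not move with it: of the 12 on the list, Csf3r included, 6 rose, and Csf3r was the only one that fell. Over all genes tested 7.17% rose and 8.51% fell.

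The M-CSF receptor Csf1r (chr18:61100598-61132149, plus strand) had 5910.7, 6007.1 and 5101.6 normalized counts in PMN-MDSC LD against 8966.7, 7702.9 and 7323.4 in PMN-MDSC Ctrl. Again all 3 LD libraries lay below all 3 Ctrl libraries, as for 17.8% of all genes tested. The log2 difference was -0.49 ± 0.10 (SE; 95% interval -0.71 to -0.28; limma adjusted p = 0.00594). Its exons overlap those of Hmgxb3 on the opposite strand over 873 bases, and strand use in counting is not given in the sources used here. Hmgxb3 averaged 202 ± 59.3 normalized counts in PMN-MDSC LD and 284 ± 41.0 in PMN-MDSC Ctrl (SD, n = 3 each), and its part in the Csf1r difference was not tested. The summed monocyte markers given above overlapped between these groups. Of the 12 on the list, Csf1r included, 2 rose and 2 fell, beside 7.17% and 8.51% of all genes. The 9 macrophage markers summed to 1371 to 1633 in PMN-MDSC LD against 1456 to 1762 in PMN-MDSC Ctrl, which also overlap.

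Among the beta chains, Csf2rb, shared by GM-CSF and IL-3, had 12988.6, 10855.1 and 12113.0 normalized counts in PMN-MDSC LD against 15606.6, 14426.7 and 15556.7 in PMN-MDSC Ctrl. The groups did not overlap, which was so with LD below Ctrl for 17.8% of all genes tested. The log2 difference was -0.35 ± 0.08 (SE; 95% interval -0.53 to -0.16; limma adjusted p = 0.0146). The call was lost without PMN-MDSC Ctrl replicate 3 (adjusted p = 0.0527), without PMN-MDSC LD replicate 2 (0.0600) and when these 2 groups were fitted alone (0.0609). The IL-3 beta chain Csf2rb2 had 2239.8, 1670.9 and 2030.5 normalized counts in PMN-MDSC LD against 2302.4, 2075.2 and 2089.4 in PMN-MDSC Ctrl, and the groups overlapped (log2 difference -0.13 ± 0.12, SE; 95% interval -0.39 to 0.13; limma adjusted p = 0.496). With the 2 genes summed, because the division of their shared reads is uncertain, the pair fell by 0.32 on the log2 scale (SE 0.09; limma adjusted p = 0.0255).

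Of the alpha chains, Il3ra passed the test and Csf2ra did not. Csf2ra, the GM-CSF alpha chain, had 4468.8, 5411.4 and 5954.1 normalized counts in PMN-MDSC LD against 5539.2, 5851.0 and 6418.4 in PMN-MDSC Ctrl. The groups overlapped, with PMN-MDSC LD replicate 1 lowest (log2 difference -0.18 ± 0.11, SE; 95% interval -0.41 to 0.06; limma adjusted p = 0.294). Il3ra, the IL-3 alpha chain, had 63.6, 73.5 and 68.7 normalized counts in PMN-MDSC LD against 36.7, 18.5 and 38.3 in PMN-MDSC Ctrl. Every LD library lay above every Ctrl library, as for 14.1% of all genes tested, and the log2 difference was 1.18 ± 0.29 (SE; 95% interval 0.56 to 1.80; limma adjusted p = 0.0146). These levels rest on few reads, 47, 50 and 49 in PMN-MDSC LD against 36, 21 and 24 in PMN-MDSC Ctrl. The call was lost without PMN-MDSC Ctrl replicate 2, the lowest library (log2 difference 0.85, adjusted p = 0.0548), and when these 2 groups were fitted alone (adjusted p = 0.0754). Progenitor markers, which summed to 557 to 1319 in PMN-MDSC LD against 340 to 479 in PMN-MDSC Ctrl, moved in the same direction. The 12 markers of basophils, mast cells and eosinophils summed to 15159 to 18149 in PMN-MDSC LD against 14356 to 15251 in PMN-MDSC Ctrl. Most of that sum was Hdc, with 15086.4 to 18051.8 in PMN-MDSC LD against 14154.3 to 15024.1 in PMN-MDSC Ctrl, while Ccr3 had 60.9 to 98.5 against 194.7 to 207.1, and neither passed the test. Fcer1a, Mcpt8, Prss34 and Prg2 of this list were at 0 in every library of both groups. The part of these lists in the Il3ra difference was not tested.

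**Figure D1:**
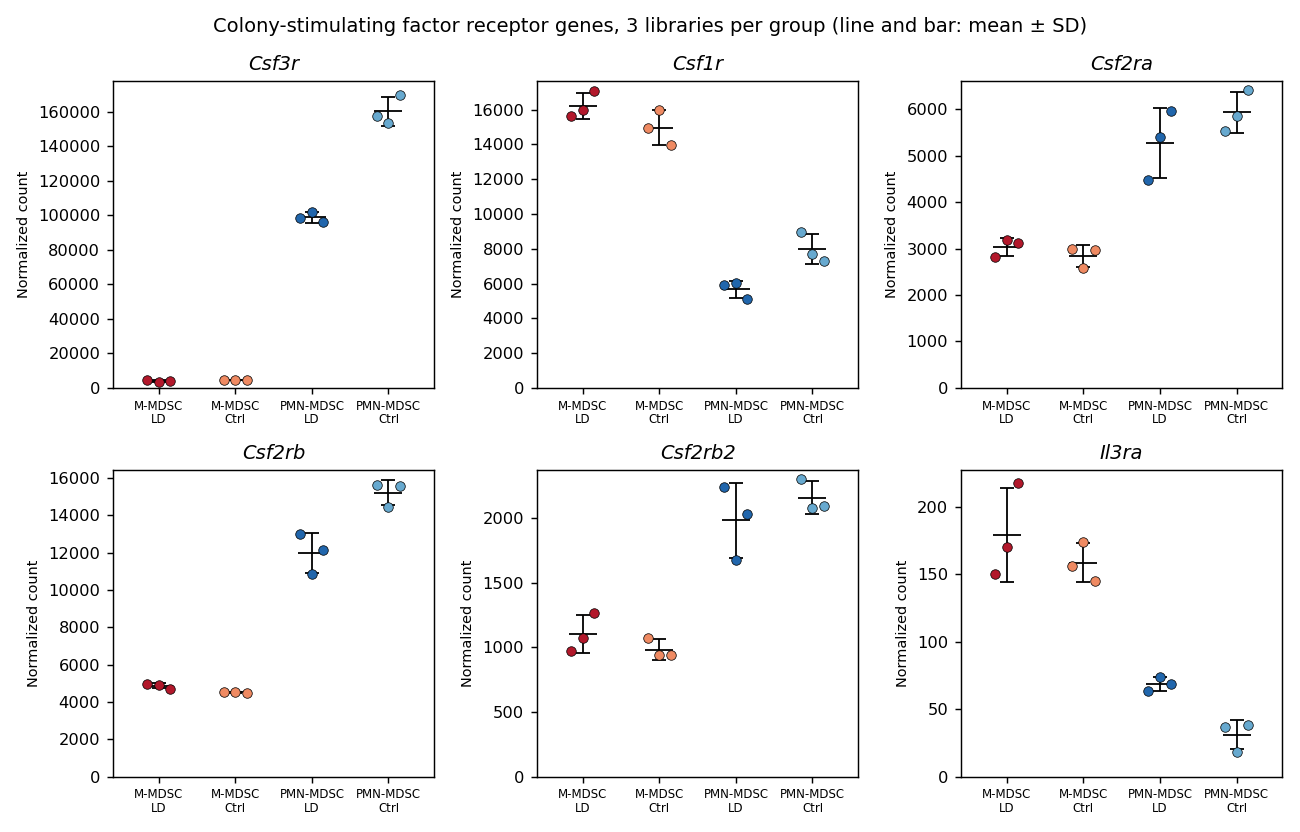
Normalized counts of the 6 receptor genes (vertical axis, starting at 0) in each library (points) of M-MDSC LD, M-MDSC Ctrl, PMN-MDSC LD and PMN-MDSC Ctrl, with the mean and SD of the 3 libraries of each group. Csf3r, Csf2ra, Csf2rb and Csf2rb2 are highest in the PMN-MDSC groups, Csf1r and Il3ra in the M-MDSC groups, and in PMN-MDSC the LD points of Csf3r, Csf1r and Csf2rb lie below the Ctrl points.

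In M-MDSC the receptors did not pass the test. Of the 6 genes, 0 were called by limma, by edgeR or by DESeq2, and 0 had an unadjusted limma p under 0.05, where 3.01% of all genes tested were called. Csf1r, among the most abundant transcripts of M-MDSC (its mean ranked 25 in M-MDSC LD and 29 in M-MDSC Ctrl), had 15617.7, 16003.1 and 17050.1 normalized counts in M-MDSC LD against 14944.9, 15991.2 and 13985.6 in M-MDSC Ctrl. The groups overlapped, and the interval of the log2 difference ran from -0.10 to 0.34 around 0.12 (limma adjusted p = 0.780). Csf3r had 4479.1, 3674.9 and 3746.5 normalized counts in M-MDSC LD against 4501.3, 4419.8 and 4749.8 in M-MDSC Ctrl. Its groups overlapped too, by M-MDSC LD replicate 1, and its log2 difference of -0.21 ± 0.10 (SE; 95% interval -0.43 to 0.02) had a limma adjusted p of 0.436, or 0.0435 with libraries weighted by their fit. The neutrophil markers summed higher in M-MDSC LD than in M-MDSC Ctrl, so Csf3r did not move with that list. Of the 12, 7 rose and 1 fell, beside 2.54% and 0.468% of all genes.

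The GM-CSF and IL-3 chains did not pass in M-MDSC either. Csf2rb had 4957.2, 4912.9 and 4708.1 normalized counts in M-MDSC LD against 4553.2, 4514.5 and 4486.7 in M-MDSC Ctrl. All 3 LD libraries lay above all 3 Ctrl libraries, as for 10.6% of all genes tested, with a log2 difference of 0.10 (95% interval -0.08 to 0.29; limma adjusted p = 0.745). Csf2rb2 had 974.3, 1070.7 and 1264.0 in M-MDSC LD against 1073.3, 936.8 and 937.4 in M-MDSC Ctrl, and Csf2ra had 2810.7, 3183.3 and 3122.0 against 2997.4, 2578.8 and 2960.8, each with overlapping groups. Their log2 differences were 0.16 (95% interval -0.10 to 0.42) and 0.10 (-0.14 to 0.33). Il3ra had 150.0, 170.7 and 217.7 normalized counts in M-MDSC LD against 156.3, 174.1 and 145.3 in M-MDSC Ctrl. Its groups overlapped, and the interval of its log2 difference of 0.16 was wide, at -0.46 to 0.78 (limma adjusted p = 0.930).

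Whether the treatment change differed between the kinds of MDSC was tested directly, as the change in M-MDSC minus that in PMN-MDSC. Of the 6 genes, 1 passed, Csf1r, where 2.25% of all genes tested did, 52.4% of them with a positive difference (64.7% with TMM scaling, 69.5% with library totals). The difference for Csf1r was 0.61 ± 0.14 (SE; 95% interval 0.30 to 0.92; limma adjusted p = 0.0433). This call was narrow: it held without M-MDSC LD replicate 1 (adjusted p = 0.0410) or PMN-MDSC LD replicate 1 (0.0211), and was lost without any one of the other 10 libraries (0.0515 without PMN-MDSC Ctrl replicate 3 to 0.100 without M-MDSC LD replicate 3). Csf3r, with a difference of 0.49 ± 0.15, and Csf2rb, with 0.45 ± 0.12, did not pass (limma adjusted p = 0.0941 and 0.0652). Csf2rb passed without PMN-MDSC LD replicate 1 (adjusted p = 0.0178), with edgeR (0.0487), with DESeq2 (0.00631), and under TMM (0.0405) and library total scaling (0.0376), and Csf3r passed with DESeq2 (0.00649) and library total scaling (0.0477). The differences for Csf2ra (0.27, adjusted p = 0.381), Csf2rb2 (0.29, 0.398) and Il3ra (-1.02 ± 0.41, 0.207) did not pass either, so that by limma the fall of Csf3r and Csf2rb and the rise of Il3ra in PMN-MDSC LD are not shown to differ from the change in M-MDSC, while for Csf3r and Csf2rb the answer depended on the tool and scaling.

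**Figure D2:**
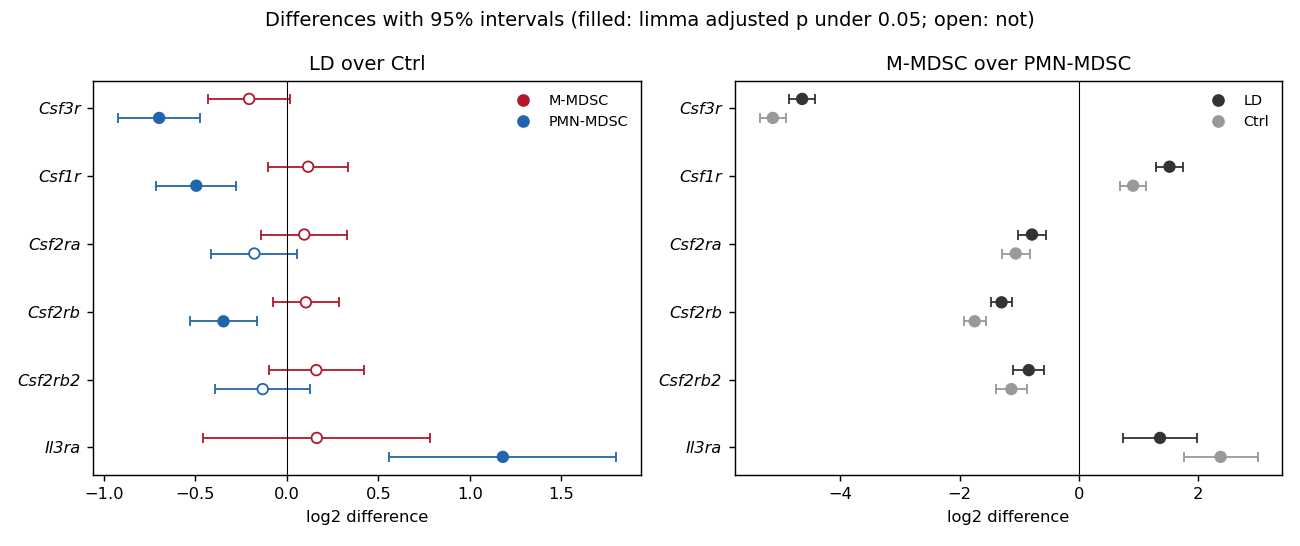
Log2 differences (horizontal axis) of the 6 receptor genes with 95% intervals, for LD against Ctrl in each kind of MDSC and for M-MDSC against PMN-MDSC by treatment. Filled points passed an adjusted p of 0.05 in limma, and the 4 filled points for LD against Ctrl are all in PMN-MDSC.

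Between the kinds of MDSC all 6 genes differed in both treatments, where 75.6% of all genes tested differed among Ctrl libraries and 74.8% among LD libraries, so that a difference as such is the rule. Csf3r, Csf2ra, Csf2rb and Csf2rb2 were lower in M-MDSC than in PMN-MDSC, as 36.1% of all genes tested were in LD and 36.8% in Ctrl. Csf1r and Il3ra were higher, as 38.8% were in LD and 38.8% in Ctrl. Csf3r differed most: it averaged 3966.8 ± 445.0 normalized counts in M-MDSC LD against 98750.7 ± 3030.9 in PMN-MDSC LD, and 4556.9 ± 171.9 in M-MDSC Ctrl against 160134 ± 8292.6 in PMN-MDSC Ctrl (SD, n = 3 each). It was 25.0-fold lower in M-MDSC in LD (log2 difference -4.64, limma adjusted p = 2.33e-13) and 35.1-fold lower in Ctrl (-5.13, 1.11e-13). Csf2rb averaged 4859.4 ± 132.9 in M-MDSC LD against 11985.6 ± 1072.4 in PMN-MDSC LD, 2.46-fold lower, and 4518.1 ± 33.4 in M-MDSC Ctrl against 15196.7 ± 667.2 in PMN-MDSC Ctrl, 3.36-fold lower.

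Csf1r stood 2.87-fold higher in M-MDSC in LD (16223.6 ± 741.2 normalized counts in M-MDSC against 5673.1 ± 497.3 in PMN-MDSC) and 1.88-fold higher in Ctrl (14973.9 ± 1003.1 against 7997.7 ± 860.4). Il3ra was 2.57-fold higher in M-MDSC in LD (179.4 ± 34.7 against 68.6 ± 4.99) and 5.19-fold higher in Ctrl (158.6 ± 14.6 against 31.2 ± 11.03; SD, n = 3 each). All libraries of these genes lay on the stated side in both treatments, as for 38.7% of all genes with M-MDSC above in LD and 41.9% in Ctrl.

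Csf2ra was 1.73-fold lower in M-MDSC in LD (log2 difference -0.79, limma adjusted p = 1.22e-05) and 2.09-fold lower in Ctrl (-1.06, 5.43e-07). Csf2rb2 was 1.79-fold lower in LD (-0.84, 1.72e-05) and 2.19-fold lower in Ctrl (-1.13, 7.68e-07). All 6 genes depend in size on how the libraries are scaled, and these 2 also in their calls. Scaling to library totals moved the median log2 difference of all genes to 0.84 in LD and 0.71 in Ctrl, against 0.096 and 0.065 in the deposited scaling, and in LD it left Csf2ra at -0.054 (adjusted p = 0.602) and Csf2rb2 at -0.11 (0.451). With the ribosomal RNA gene Rn45s left out of the totals Csf2ra in LD turned to 0.012 (0.904), with a median of all genes of 0.91. Under that last scaling the other 4 kept their direction and call, with Csf3r 14.3-fold lower in M-MDSC in LD and 20.9-fold in Ctrl, Csf2rb 1.41-fold lower in LD and 2.003-fold in Ctrl, Csf1r 4.99-fold higher in LD and 3.15-fold in Ctrl, and Il3ra 4.45-fold higher in LD and 8.62-fold in Ctrl. The share of calls that were higher in M-MDSC was 51.8% in LD and 51.4% in Ctrl, against 62.2% and 60.5% with upper-quartile scaling, 74.1% and 70.8% with library totals, and 75.7% and 73.9% with those totals less Rn45s.

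The lower receptor of each kind was set beside the other markers of the opposite lineage. Csf1r in PMN-MDSC reached 35.0% of its level in M-MDSC in LD and 53.4% in Ctrl, whereas the 11 other monocyte markers had a median of 3.75% in LD and 4.69% in Ctrl. Of these 11, 9 lay below Csf1r in LD and 10 in Ctrl. At the low end Ccr2, the receptor of the monocyte chemokine Ccl2, reached 2.75% in LD and F13a1, a coagulation factor subunit, 2.40% in Ctrl, and at the high end Cd14 reached 661% and 371%. Thus most monocyte markers were scarcer in PMN-MDSC than Csf1r was, and none was at 0 in all 3 libraries of a PMN-MDSC group. Csf3r in M-MDSC reached 4.02% of its level in PMN-MDSC in LD and 2.85% in Ctrl. The 11 other neutrophil markers had a median of 5.76% in LD (Retnlg lowest at 0.113%, Camp highest at 20.9%) and 1.37% in Ctrl (Mmp9 lowest at 0.0708%, Cd177 highest at 16.9%), and 4 of 11 lay below Csf3r in LD and 8 of 11 in Ctrl. Csf3r therefore lay within the range of the neutrophil markers in M-MDSC, and the part of those markers' cells in its level was not tested.

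**Figure D3:**
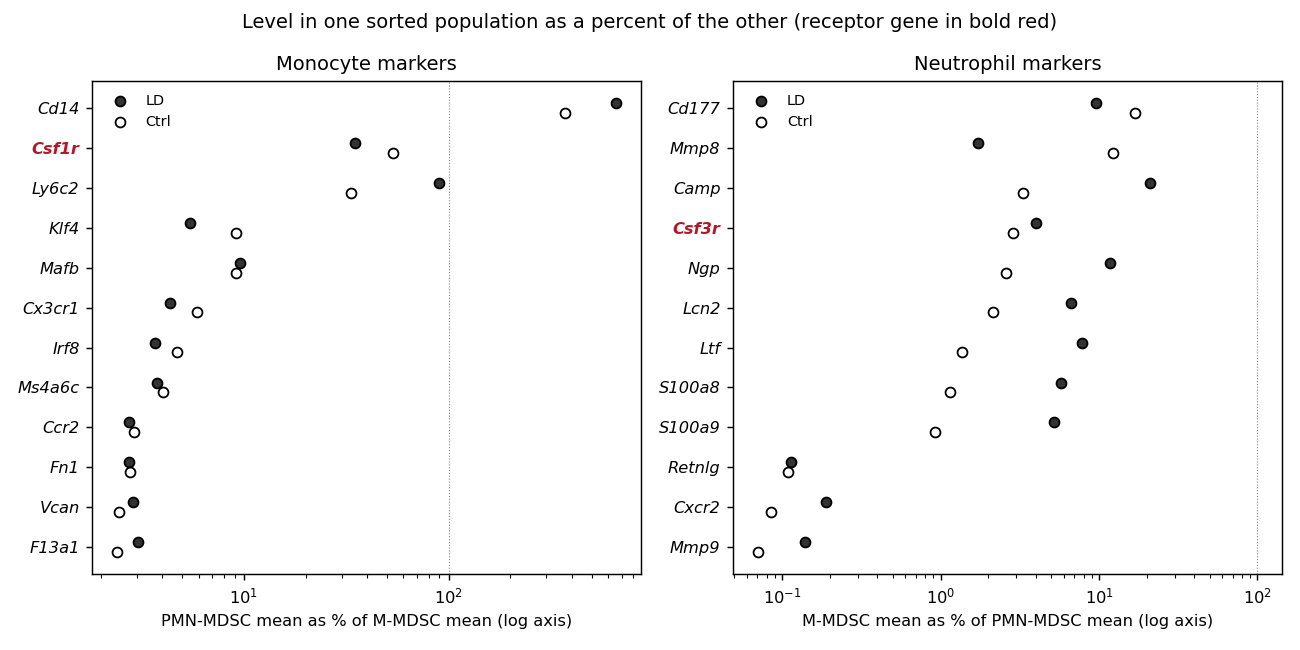
Level in the opposite kind of MDSC as a percentage of the level in the kind the marker stands for (log axis), for monocyte markers in PMN-MDSC relative to M-MDSC and neutrophil markers in M-MDSC relative to PMN-MDSC, each for LD and Ctrl. Csf1r (red), at 35.0% in LD and 53.4% in Ctrl, lies above most other monocyte markers, and Csf3r (red), at 4.02% in LD and 2.85% in Ctrl, lies among the other neutrophil markers.

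To order the receptors within a group, levels were divided by the length of each gene's longest coding transcript, from 1849 bases for Csf2ra to 4900 for Csf2rb. In M-MDSC LD the order was Csf1r with 3451.1 ± 158 normalized counts per kilobase, Csf2ra with 1643.4 ± 108, Csf3r with 1139.6 ± 128, Csf2rb with 991.7 ± 27.1, Csf2rb2 with 232.7 ± 31.1 and Il3ra with 77.5 ± 15 (SD, n = 3). In M-MDSC Ctrl the order was the same, with Csf1r at 3185.3 ± 213, Csf2ra at 1539.0 ± 125, Csf3r at 1309.1 ± 49.4, Csf2rb at 922.1 ± 6.82, Csf2rb2 at 207.3 ± 16.6 and Il3ra at 68.5 ± 6.29. In PMN-MDSC Csf3r stood far above the rest, at 28368.5 ± 871 per kilobase in LD and 46002.4 ± 2382 in Ctrl.

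Csf2ra and Csf2rb came next in PMN-MDSC, at 2854.6 ± 406 and 2446.0 ± 219 per kilobase in LD and at 3210.5 ± 241 and 3101.4 ± 136 in Ctrl, and their libraries overlapped, so that these neighbours did not differ beyond their spread. Below them stood Csf1r (1206.8 ± 106 in LD and 1701.3 ± 183 in Ctrl), Csf2rb2 (417.8 ± 60.7 and 454.8 ± 26.8) and Il3ra (29.6 ± 2.15 and 13.5 ± 4.77). With the union of all annotated exons as the length, chosen after seeing the data, Csf3r and Csf2ra changed places in M-MDSC, and Csf2ra and Csf2rb in PMN-MDSC Ctrl.

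**Figure D4:**
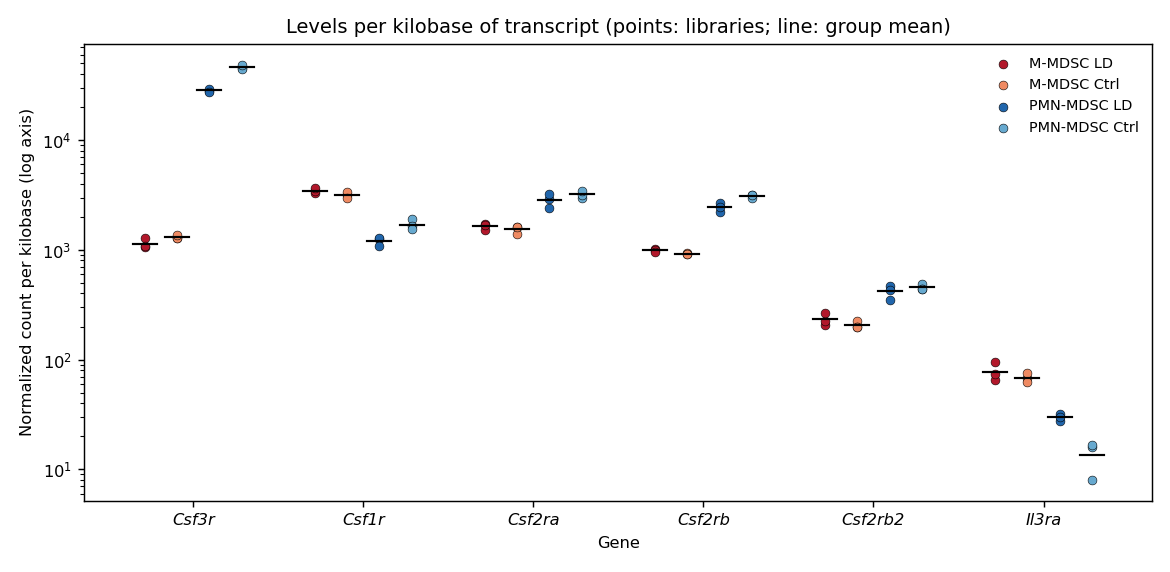
Normalized counts per kilobase of the longest coding transcript (log axis) of the 6 receptor genes in each library (points) of the 4 groups. Csf3r tops both PMN-MDSC groups and Csf1r both M-MDSC groups, and Il3ra is lowest in all 4.

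In each ratio of the receptor genes given here, the libraries of M-MDSC and PMN-MDSC did not overlap. Per kilobase, Csf2rb stood to its GM-CSF alpha partner Csf2ra as 0.606 ± 0.0523 in M-MDSC LD against 0.602 ± 0.0509 in M-MDSC Ctrl, and as 0.874 ± 0.193 in PMN-MDSC LD against 0.969 ± 0.0816 in PMN-MDSC Ctrl (SD, n = 3 each). Csf2ra exceeded Il3ra, its competitor for the shared beta chain, 21.6 ± 3.15-fold in M-MDSC LD against 22.7 ± 3.67-fold in M-MDSC Ctrl. In PMN-MDSC it did so 96.2 ± 10.8-fold in LD against 265 ± 115-fold in Ctrl. The last value rests on 36, 21 and 24 reads of Il3ra. The ratio of Csf3r to Csf1r in normalized counts was 0.245 ± 0.0362 in M-MDSC LD against 0.306 ± 0.0319 in M-MDSC Ctrl, and 17.5 ± 1.16 in PMN-MDSC LD against 20.2 ± 2.80 in PMN-MDSC Ctrl. Of the counts of the beta chain pair, Csf2rb took 81.5 ± 2.43% in M-MDSC LD against 82.2 ± 1.06% in M-MDSC Ctrl, and 85.9 ± 0.711% in PMN-MDSC LD against 87.6 ± 0.524% in PMN-MDSC Ctrl. No test was run on these ratios, and those with Csf2rb depend on the uncertain split of reads between Csf2rb and Csf2rb2.

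Of the 5 ligand genes, 1 was abundant enough to be tested, Csf1, which encodes M-CSF. It had 4183.4, 3552.2 and 3612.3 normalized counts in PMN-MDSC LD against 5374.9, 5912.6 and 4448.6 in PMN-MDSC Ctrl, without overlap, as with LD below Ctrl for 17.8% of all genes tested. Its log2 difference of -0.47 ± 0.30 (SE) did not pass (limma adjusted p = 0.313, or 0.0257 with the 2 groups fitted alone). In M-MDSC it had 78.2, 30.6 and 50.2 in LD against 25.9, 38.3 and 60.6 in Ctrl, with overlap. Csf1 was thus 74.8-fold lower in M-MDSC than in PMN-MDSC in LD (log2 difference -6.23 ± 0.30, limma adjusted p = 1.61e-10) and 129-fold lower in Ctrl (-7.02 ± 0.30, 4.05e-11), opposite to its receptor Csf1r. Il3, the ligand of the Il3ra chain, was at 0 in all 12 libraries, and Csf3, which encodes G-CSF, reached at most 3.5 normalized counts.

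Of 21 kinases and adaptors next to the receptors, 2 rose and 3 fell in PMN-MDSC LD and 16 did not pass, with a median log2 difference of -0.024 beside -0.050 over all genes, 7.17% of which rose and 8.51% fell. Under other scalings 3 to 5 of the 21 fell. The scaffold Gab2, which carries receptor signals to PI3 kinase, had 2088.3, 2031.3 and 2118.9 normalized counts in PMN-MDSC LD against 3186.8, 3099.1 and 3125.4 in PMN-MDSC Ctrl. Its groups stood well apart, with a log2 difference of -0.59 ± 0.08 (SE; limma adjusted p = 4.59e-04). Pik3cd, the PI3 kinase subunit delta (-0.35 ± 0.08, 0.00913), and Fgr, a Src family kinase (-0.41 ± 0.10, 0.0128), also fell. The adaptor Shc1 rose (0.78 ± 0.15, 0.00440), as did Dok2, an adaptor that dampens kinase signals (1.31 ± 0.35, 0.0223). The Dok2 call was lost without PMN-MDSC Ctrl replicate 1 or 3 or PMN-MDSC LD replicate 2 or 3 (highest adjusted p 0.0896). In M-MDSC limma called 0 of the 21, where it called 3.01% of all genes tested, with 3 at an unadjusted p under 0.05, and edgeR called 0 and DESeq2 1. The direct difference passed for Gab2 alone in this list (0.49, adjusted p = 0.0387), beside 2.25% of all genes, a call lost when any 1 of 10 libraries was dropped (highest adjusted p 0.0980).

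Jak2, the kinase bound to Csf3r and to the beta chains, had 4322.8, 4765.6 and 5063.7 normalized counts in PMN-MDSC LD against 5010.8, 4761.2 and 4601.9 in PMN-MDSC Ctrl, with overlapping groups. It was lower in M-MDSC than in PMN-MDSC (log2 difference -1.55 in LD and -1.55 in Ctrl), as was Jak1 (-1.91 in LD and -1.93 in Ctrl), while Tyk2 was higher (1.41 in LD and 1.79 in Ctrl). Of the 21, 17 were lower and 2 higher in M-MDSC in each treatment, where 36.1% of all genes were lower and 38.8% higher in LD, and 36.8% and 38.8% in Ctrl. Other scalings left 11 to 16 of the 21 lower and 2 to 6 higher in each treatment.

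Of the 5 STAT factors, 1 fell in PMN-MDSC LD and 0 rose, beside 8.51% and 7.17% of all genes, and 2 fell under each of the 4 other scalings. The median log2 difference was -0.16 beside -0.050 over all genes. Stat5b, which carries signals of all these cytokine receptors, had 5360.2, 5301.0 and 5884.0 normalized counts in PMN-MDSC LD against 7053.0, 6426.7 and 6613.1 in PMN-MDSC Ctrl. The groups did not overlap, as with LD below Ctrl for 17.8% of all genes tested. The log2 difference was -0.28 ± 0.08 (SE, limma adjusted p = 0.0261), but the call was lost without PMN-MDSC Ctrl replicate 1 or 3 or PMN-MDSC LD replicate 2 (highest adjusted p 0.0788), and with the 2 groups fitted alone or libraries weighted. Stat3, the main STAT of the G-CSF receptor, missed the threshold (-0.20, 0.0929) but passed under the 4 other scalings and with DESeq2 (lowest adjusted p 0.0140). In M-MDSC limma called 0 of the 5, where it called 3.01% of all genes tested, with 1 at an unadjusted p under 0.05, and edgeR and DESeq2 each called 0. Stat5b was lower in M-MDSC than in PMN-MDSC (-1.39 in LD and -1.56 in Ctrl), and Stat5a was higher in Ctrl (0.58).

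Of the 13 negative regulators tested, 1 rose and 1 fell in PMN-MDSC LD, a share near the 15.7% of all genes called in either direction. Socs3, which binds the G-CSF receptor and is induced by STAT3, had 4195.6, 2368.1 and 2187.6 normalized counts in PMN-MDSC LD against 7425.4, 6634.2 and 7725.7 in PMN-MDSC Ctrl. All LD libraries lay below all Ctrl libraries, as for 17.8% of all genes tested, and PMN-MDSC LD replicate 1 was the highest of its group. The log2 difference was -1.38 ± 0.23 (SE, 2.60-fold lower, limma adjusted p = 0.00170). Usp18, an inhibitor of interferon receptor signalling, rose (0.57 ± 0.14, 0.0134), a call lost without PMN-MDSC Ctrl replicate 2 (0.0573). Cish, a STAT5 target that restrains the same receptors, had 79.8, 53.0 and 127.6 normalized counts in PMN-MDSC LD against 26.5, 22.9 and 27.1 in PMN-MDSC Ctrl. Its groups did not overlap, as with LD above Ctrl for 14.1% of all genes tested, but Cish did not pass the test (1.64 ± 0.67, 0.113). It passed with a pseudocount of 8, with the 2 groups fitted alone and with DESeq2 (lowest adjusted p 0.00948). In M-MDSC LD 1 of the 13 rose, beside 2.54% of all genes: Socs1 (1.49 ± 0.35, 0.0318). That call was lost in 6 of the 12 fits without 1 library (highest adjusted p 0.140). The direct difference of the LD changes passed for Socs3 alone in this list (1.33, limma adjusted p = 0.0482), beside 2.25% of all genes, and was kept in 11 of 27 alternatives.

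**Figure D5:**
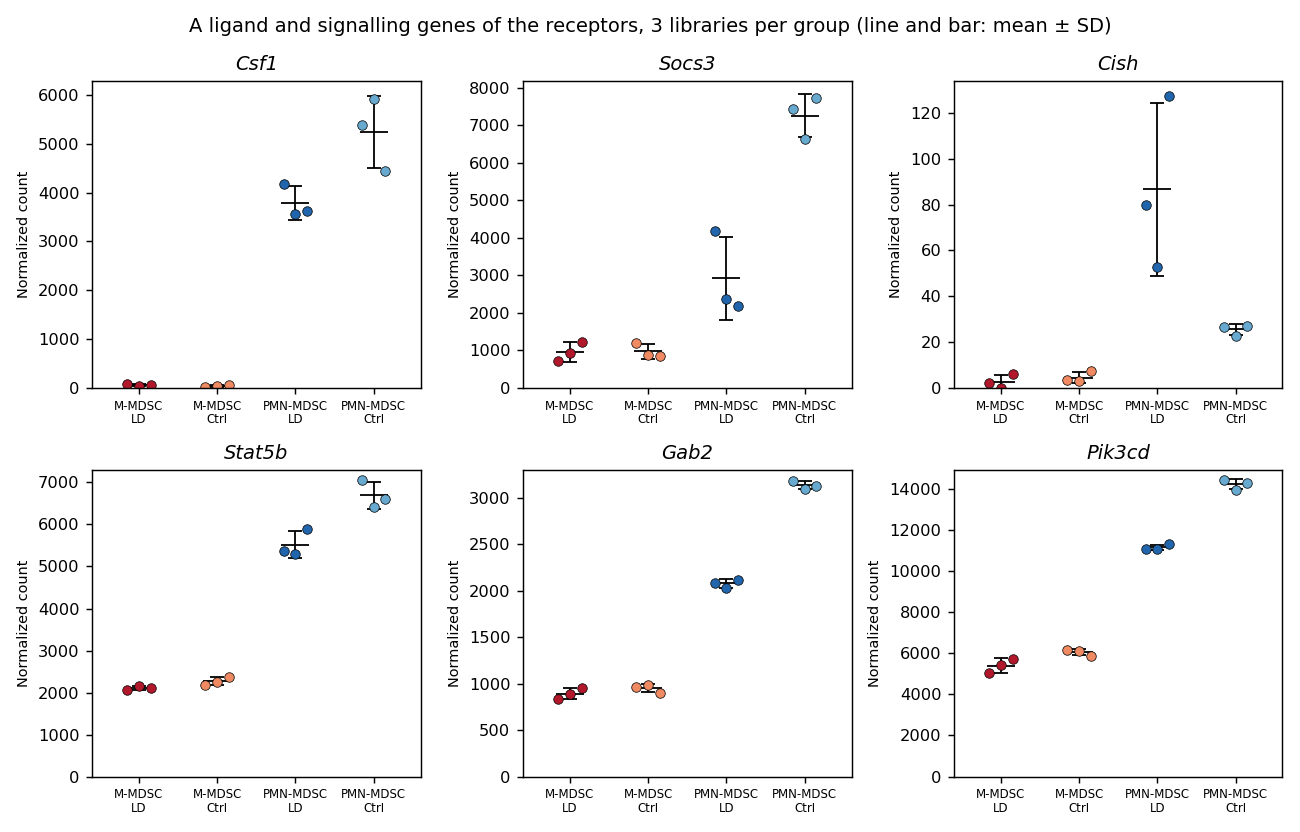
Normalized counts (vertical axis, starting at 0) of Csf1, Socs3, Cish, Stat5b, Gab2 and Pik3cd in each library (points) of the 4 groups, with the mean and SD of 3 libraries. In PMN-MDSC the LD points of Socs3, Stat5b, Gab2 and Pik3cd lie below the Ctrl points and those of Cish above.

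Of 9 receptor sorting and shedding genes tested, 1 rose and 1 fell in PMN-MDSC LD, beside 7.17% and 8.51% of all genes. Gga3, a sorting adaptor, fell (log2 difference -0.49 ± 0.10, SE; limma adjusted p = 0.00598). Adam10, a shedding protease, rose (0.40 ± 0.12, 0.0341), a call lost in 5 of the 12 fits without 1 library (highest adjusted p 0.132). In M-MDSC limma called 0 of the 9, where it called 3.01% of all genes tested, with 1 at an unadjusted p under 0.05, and edgeR and DESeq2 each called 0. Of 7 other receptors of the same families tested, 1 fell in PMN-MDSC LD, beside 8.51% of all genes. It was Lifr, the receptor of leukaemia inhibitory factor (-1.06 ± 0.18, 0.00188). In M-MDSC LD 1 of the 7 rose, beside 2.54% of all genes: Kit, the stem cell factor receptor (2.47 ± 0.46, 0.00860). It had 91.3, 33.1 and 44.3 normalized counts in M-MDSC LD against 6.49, 5.74 and 15.7 in M-MDSC Ctrl. Kit is also 1 of the 10 progenitor markers, whose sum moved the same way.

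Of 9 transcription factors tested that are known to bind at receptor genes, 4 rose in M-MDSC LD and 0 fell, beside 2.54% of all genes that rose and 0.468% that fell. Cebpe (log2 difference 2.43 ± 0.33, SE; limma adjusted p = 8.68e-04) and Gfi1 (3.50 ± 0.54, 0.00239), factors of granulocyte maturation, Myb, a factor of progenitors (2.25 ± 0.42, 0.00839), and Cebpb, a factor of myeloid cells under demand (0.41 ± 0.10, 0.0357), made up the 4, the last lost in 7 of the 12 fits without 1 library (highest adjusted p 0.151). In PMN-MDSC LD 1 of the 9 rose, beside 7.17% of all genes: Cebpe (1.22 ± 0.33, 0.0233). That call was lost without any 1 of the PMN-MDSC Ctrl libraries or without PMN-MDSC LD replicate 3 (highest adjusted p 0.0776). The direct difference of the LD changes passed for Cebpb alone in this list (0.59, limma adjusted p = 0.0433), beside 2.25% of all genes, and was kept in 17 of 27 alternatives. Irf8 and Klf4, factors of the monocyte lineage, were higher in M-MDSC than in PMN-MDSC (4.76 and 4.27 in LD, 4.48 and 3.48 in Ctrl), and Ets2 was lower (-3.96 in LD, -4.92 in Ctrl). The neutrophil and progenitor markers given above moved with these factors in M-MDSC, and their part was not tested.

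The genes that the receptors are known to induce were counted in 3 lists. Of 12 G-CSF response genes of neutrophils, 3 rose and 2 fell in PMN-MDSC LD (median log2 difference -0.051, beside -0.050 over all genes, 7.17% of which rose and 8.51% fell). Mmp8, a granule collagenase, rose (1.88 ± 0.17, SE; limma adjusted p = 4.08e-05), as did Prok2, a secreted chemoattractant (2.88 ± 0.69, 0.0129), and Lcn2, an iron-scavenging granule protein (1.42 ± 0.35, 0.0153). The calls of Prok2 and Lcn2 were each lost without PMN-MDSC Ctrl replicate 3 or PMN-MDSC LD replicate 3 (highest adjusted p 0.0666 and 0.0545 in these fits). Junb (-0.61 ± 0.12, 0.00493) fell, as did Socs3. In M-MDSC LD 1 of the 12 rose and 1 fell, beside 2.54% and 0.468% of all genes. Lcn2 rose (2.83 ± 0.35, 6.27e-04) and Mmp8 fell (-0.89 ± 0.17, 0.0104), the call of Mmp8 being lost without M-MDSC Ctrl replicate 2 or M-MDSC LD replicate 3 (highest adjusted p 0.0546). The direct difference of the LD changes passed for Mmp8 (-2.78, limma adjusted p = 1.68e-04, kept in 27 of 27 alternatives) and Socs3 (1.33, 0.0482, kept in 11 of 27), beside 2.25% of all genes. Mmp8 and Lcn2 are also on the neutrophil marker list.

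Of 14 STAT5, GM-CSF and IL-3 response genes, 1 rose and 1 fell in PMN-MDSC LD, a share near the 15.7% of all genes called. Mcl1, a survival protein of neutrophils, had 31102.0, 31029.7 and 30807.0 normalized counts in PMN-MDSC LD against 45734.4, 45248.1 and 45715.5 in PMN-MDSC Ctrl. The gap was far larger than the spread in either group (log2 difference -0.56 ± 0.10, SE; limma adjusted p = 0.00252). Ccnd3, a cyclin, rose (0.58 ± 0.10, 0.00174). In M-MDSC LD 4 of the 14 rose and 0 fell, beside 2.54% and 0.468% of all genes: Il1rn, the IL-1 receptor antagonist (1.18 ± 0.13, 2.97e-04), Ccnd2, a cyclin (2.13 ± 0.34, 0.00301), Egr1, an early response factor (1.66 ± 0.27, 0.00352), and Id1, an inhibitor of helix-loop-helix factors (1.07 ± 0.26, 0.0398), the last lost in 8 of the 12 fits without 1 library (highest adjusted p 0.154). Other lists moved with them in M-MDSC LD, where 10 of 14 cell division genes, 6 of 9 progenitor markers and 7 of 12 neutrophil markers rose, and the part of those lists was not tested. The direct difference of the LD changes passed for Il1rn (0.95, limma adjusted p = 0.0193) and Egr1 (1.68, 0.0378) among the 14, beside 2.25% of all genes. These calls were kept in 25 and 17 of 27 alternatives. Of 13 M-CSF response genes, 2 rose in M-MDSC LD, beside 2.54% of all genes, the complement genes C1qa (2.04 ± 0.50, 0.0396) and C1qc (1.63 ± 0.40, 0.0402). In PMN-MDSC LD 1 of the 13 rose and 1 fell, a share near the 15.7% of all genes called. Cd14, also a monocyte marker, rose (1.05 ± 0.33, 0.0433) and the lipoprotein gene Apoe fell (-1.0 ± 0.27, 0.0219). All 4 calls were lost in several of the fits without 1 library (highest adjusted p 0.158 for C1qa, 0.172 for C1qc, 0.195 for Cd14 and 0.0781 for Apoe). The direct difference passed for Apoe alone in this list (1.74, limma adjusted p = 0.0304), beside 2.25% of all genes, and was kept in 16 of 27 alternatives. C1qa and C1qc are also macrophage markers, of which 3 of 8 tested rose in M-MDSC LD, and whose 9 genes summed to 3531 to 4289 in M-MDSC LD against 3040 to 3572 in M-MDSC Ctrl. The part of macrophage markers in this count was not tested.

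The genes whose pattern over the 12 libraries was most like that of each receptor were taken by Pearson's r on log2(normalized count + 1). They were Hdac4, Atg3 and Mtmr12 for Csf3r (r = 0.999, 0.999 and 0.998), Tnfrsf1b, Ifngr1 and Ripk2 for Csf1r (0.994, 0.992 and 0.991), Brpf3, Gtpbp2 and Ubr4 for Csf2ra (0.997, 0.994 and 0.994), and Slc2a1, Cab39 and Tns1 for Csf2rb (0.995, 0.995 and 0.994). For Csf2rb2 they were Sertad1, Narf and Arhgap24 (0.983, 0.982 and 0.980), and for Il3ra Psmc3, Msantd4 and Parp3 (0.981, 0.981 and 0.980). The libraries fall into the 2 kinds of MDSC, so these values describe mainly the contrast between M-MDSC and PMN-MDSC.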

How the data were processed

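RNA was sequenced from 12 sorted populations, 3 libraries in each of 4 groups. Per the submitters' processing notes STAR 2.5.3a, HTSeq 0.6.1, DESeq2 and the build mm10 were used. The deposited table holds normalized counts, a signal per gene that the authors made by dividing read counts by a factor per library: all values (100%) were whole multiples of 1 read to within 0.001 reads. Strandedness, the handling of reads shared by genes, and filters are not given in the sources used here. Precision is limited by library totals of 8906045 to 16242926 reads.

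Genes with a mean of at least 10 normalized counts (11122) were compared with limma 3.58.1 (R 4.3.3) on log2(normalized count + 1), with 4 group means, 8 residual degrees of freedom, and Benjamini-Hochberg adjustment over all genes of a comparison at 0.05. Fold changes are on that scale and understate those of low genes. edgeR 4.0.16 and DESeq2 1.42.0 were run on the recovered reads as alternatives, beside other scalings, pseudocounts, minimum levels, blocks, weights and fits without each library. The code was tested on simulated data.

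The receptors and the lists were chosen with earlier results of these data known. Named are the 6 receptors, up to 4 genes past the threshold per list, comparison and direction (otherwise up to 2), and 3 genes nearest in pattern to each receptor, without Gm and Rik names. Fewer are named for M-MDSC against PMN-MDSC. Spi1 and Adgre1 were not analysed here. Lists of other cell types are given where they moved with a result. Sequences were read from the mm10 genome with GENCODE M21 and from RefSeq windows (GRCm38.p6).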

Additional observations from a re-analysis of the deposited data

Results flagged for a closer look

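By the direct test the change with treatment differed between the kinds of MDSC for Csf1r (M-MDSC change minus PMN-MDSC change 0.61 on the log2 scale, limma adjusted p = 0.0433). This call was narrow, kept in 15 of 27 alternatives and in 2 of the 12 fits without 1 library. For Csf2rb every LD library lay above every Ctrl library in M-MDSC (as for 10.6% of all genes tested) and below every Ctrl library in PMN-MDSC (as for 17.8%). The direct test of that difference, 0.45 on the log2 scale, missed the threshold (limma adjusted p = 0.0652).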

How the results depend on the processing

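Over the 30 receptor results, 799 of 832 values under alternatives kept their direction and side of the threshold, and 21 results kept them under every alternative. The scaling to library totals, with or without Rn45s, the fits without LD replicate 1 of both populations and the exon union lengths were chosen after seeing the data. Genes called for LD in M-MDSC numbered 335, against 976 with sample weights, 723 with DESeq2, 440 with edgeR and 192 (without M-MDSC Ctrl replicate 1) to 549 (without PMN-MDSC LD replicate 1) without 1 library. For LD in PMN-MDSC they numbered 1745, against 1742 with edgeR, 2168 with DESeq2 and 890 (without PMN-MDSC Ctrl replicate 3) to 2162 (without PMN-MDSC LD replicate 1). For M-MDSC change minus PMN-MDSC change they numbered 250, against 125 with no minimum level, 524 with sample weights, 773 without LD replicate 1 of both populations, 290 with edgeR, 699 with DESeq2 and 113 (without PMN-MDSC Ctrl replicate 2) to 832 (without PMN-MDSC LD replicate 1).

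Csf3r in M-MDSC passed with sample weights (-0.27), and its difference of LD changes with library totals (0.60) and DESeq2 (0.50). The Csf1r difference missed with no minimum level (0.61, adjusted p = 0.0740) and ranged from 0.53 to 0.67 without 1 library. The Csf2rb difference passed with TMM scaling (0.51), library totals (0.56), sample weights (0.45), without LD replicate 1 of both populations (0.50), with edgeR (0.51) and DESeq2 (0.45), and ranged from 0.38 to 0.51 without 1 library. In PMN-MDSC, Csf2rb with the 2 groups fitted alone gave -0.35 and without 1 library -0.41 to -0.28, Csf2rb2 summed with Csf2rb gave -0.32, and Il3ra gave 1.18 with the 2 groups alone and 0.85 to 1.36 without 1 library. Between M-MDSC and PMN-MDSC in LD, library totals gave -0.054 for Csf2ra and -0.11 for Csf2rb2, and totals without Rn45s 0.012 (reversed) and -0.041. The cause of these shifts was not tested.

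Replicate numbers do not pair the samples by any label. What remained of each library once each gene's group mean was subtracted was correlated between the 2 populations, within 1 treatment and number. The correlations were 0.07 to 0.21 in LD and -0.04 to 0.13 in Ctrl. The block by number lost the Csf1r difference (0.61, adjusted p = 0.0521), and the block by presumed animal called the Csf2rb difference (0.45, adjusted p = 0.0484). The block by number gave 373 genes for M-MDSC, 1657 for PMN-MDSC and 213 for the difference, and that by presumed animal 536 for the difference. Over 71 results of list genes, 1777 of 1941 alternative values kept direction and side. Depth limits Il3ra most, with 81 reads in all PMN-MDSC Ctrl libraries.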
